A study of Homo sapiens with 6 samples.

Results

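The genes examined were 9 genes of HLA class I antigen presentation, HLA-B, HLA-C, HLA-E, HLA-F, B2M, TAP1, TAP2, TAPBP and NLRC5. They were chosen by symbol from the 61806 genes of the deposited table, and each symbol matched 1 row. Other class I genes were not analysed here. The libraries came from HCT116, an established human colorectal carcinoma cell line grown as a pure culture. Poly(A) RNA was sequenced from 3 samples with a control short interfering RNA (si-NC, labelled wildtype) and 3 samples in which STRIP2 was targeted (si-STRIP2, labelled as STRIP2 knockdown). The groups were compared for the level of each transcript. No group is labelled as treated with interferon, and the labels do not say whether the 3 samples of a group were separate cultures, so the p-values measure the spread between these samples, which may be technical.

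Class I molecules show peptides from inside the cell to CD8+ T cells. A heavy chain, encoded by an HLA gene, pairs with beta-2-microglobulin, the product of B2M, in the endoplasmic reticulum. Peptides made by the proteasome enter through the transporter formed by TAP1 and TAP2, and tapasin, the product of TAPBP, holds the empty heavy chain at the transporter until a peptide binds. NLRC5 is the transactivator of class I genes. It acts with the RFX, CREB and NF-Y factors at a conserved promoter module, next to an NF-kB site and an interferon-stimulated response element (ISRE). In epithelial tumours a low class I level is known as a route of escape from T cells.

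The promoters are shown first so that the elements named above can be looked for. Of the 9 genes, 7 matched the RefSeq promoter table (GRCh38.p14), and the 250 bases before the annotated start were searched on both strands. HLA-E and NLRC5 had no entry there and were not searched. The sequences run 5′ to 3′ on the strand of each gene. Capitals mark every match to the motifs searched, which were an ISRE-type pair of repeats (TTTC and then TTTC or TTC, with any 2 bases between), the NF-kB consensus, the CRE core TGACG, the NF-Y site CCAAT and the AP-1 site TGANTCA. The windows were chr6:31357180-31357429 (minus strand) for HLA-B, chr6:31272093-31272342 (minus strand) for HLA-C, chr6:29723184-29723433 (plus strand) for HLA-F and chr15:44711267-44711516 (plus strand) for B2M.
HLA-B: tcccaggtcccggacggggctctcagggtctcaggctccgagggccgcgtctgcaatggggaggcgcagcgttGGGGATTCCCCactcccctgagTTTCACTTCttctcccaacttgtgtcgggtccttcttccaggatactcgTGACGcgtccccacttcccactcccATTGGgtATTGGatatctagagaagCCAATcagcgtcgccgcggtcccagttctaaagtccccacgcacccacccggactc
HLA-C: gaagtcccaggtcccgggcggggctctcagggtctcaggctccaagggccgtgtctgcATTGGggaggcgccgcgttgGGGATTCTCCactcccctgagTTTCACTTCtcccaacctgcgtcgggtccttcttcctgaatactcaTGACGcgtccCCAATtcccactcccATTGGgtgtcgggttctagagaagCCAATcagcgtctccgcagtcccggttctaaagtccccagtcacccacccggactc
HLA-F: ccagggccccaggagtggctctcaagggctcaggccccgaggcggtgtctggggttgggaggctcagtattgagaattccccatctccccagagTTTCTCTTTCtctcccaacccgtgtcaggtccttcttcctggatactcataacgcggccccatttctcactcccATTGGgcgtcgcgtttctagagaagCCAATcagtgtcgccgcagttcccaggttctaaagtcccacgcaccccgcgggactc
B2M: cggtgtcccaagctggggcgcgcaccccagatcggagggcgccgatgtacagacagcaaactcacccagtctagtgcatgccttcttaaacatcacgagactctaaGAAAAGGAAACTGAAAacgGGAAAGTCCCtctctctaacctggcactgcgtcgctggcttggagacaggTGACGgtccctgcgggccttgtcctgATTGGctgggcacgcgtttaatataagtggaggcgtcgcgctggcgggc
For the peptide-loading genes the 40 bases around the ISRE-type matches are shown, with the same capitals.
TAP1: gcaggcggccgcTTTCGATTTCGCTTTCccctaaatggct
TAP2: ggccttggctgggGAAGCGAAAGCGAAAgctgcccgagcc
TAPBP: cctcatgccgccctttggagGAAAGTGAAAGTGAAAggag

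An ISRE-type match was present in 7 of the 7 windows, against 9.08% of all 35116 windows of the same length in the table. For HLA-B and HLA-C the match was to the shorter form, which ends in TTC, and windows were not counted for each form alone. In HLA-B it lay 155 to 147 bases before the start, in HLA-C 151 to 143 and in HLA-F 156 to 147. These heavy chain genes thus had it at nearly the same place, and HLA-E was not searched. B2M, TAP1, TAP2 and TAPBP each had a pair of overlapping matches, at different distances. The NF-kB consensus was matched in 5 of 7 windows (HLA-B, HLA-C, B2M, TAP1 and TAPBP), against 9.96% of all windows. In HLA-B its 2 matches overlap. TGACG was found in 4 (HLA-B, HLA-C, B2M and TAP2), against 21.2%, and CCAAT in 5 (HLA-B, HLA-C, HLA-F, B2M and TAP1), against 32.0%. The AP-1 site was found in 0 of 7, against 6.57%. The windows of HLA-B and HLA-C were 91.9% identical over 246 aligned bases, and that of HLA-F was 83.7% identical to HLA-B, so the matches in these windows are not separate instances. A match is a stretch of letters and was not tested as a bound site.

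**Figure D1:**
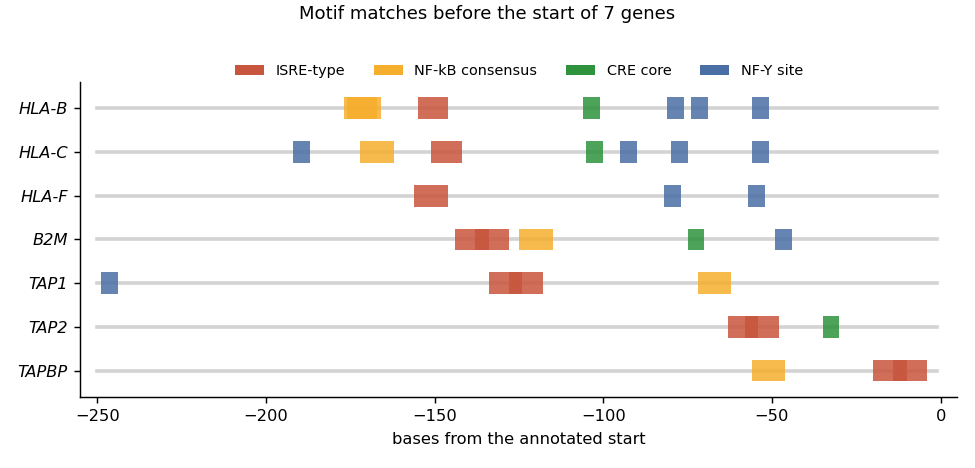
Motif matches in the 250 bases before the annotated start of 7 genes. The x axis is the distance from the start in bases and each row is a gene. ISRE-type matches lie in all 7 rows, at about the same distance in HLA-B, HLA-C and HLA-F and nearest to the start in TAPBP. The CRE core is TGACG and the NF-Y site is CCAAT.

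The libraries held 17184963 to 21721218 counts. The targeted gene STRIP2 had FPKM values (counts scaled by exonic length and by the library's total) of 3.19, 3.77 and 3.81 in si-NC. In si-STRIP2 they were 2.71, 2.53 and 2.58, a fall by 0.46 on the log2 scale (standard error, SE, 0.083, edgeR adjusted p = 1.62e-05). The si-STRIP2 mean was 72.6% of control, so the knockdown was partial, and 13.3% of all tested genes had a lower log2 fold change. Colorectal epithelial markers summed to 691 to 721 FPKM in si-NC and to 668 to 691 in si-STRIP2, with EPCAM, KRT8, KRT18 and KRT19 all above 100 FPKM, whereas VIL1 and LGALS4 were at 0.13 FPKM or less in every library. Of the 7 epithelial markers tested, 4 were lower and 2 higher, where 27.0% and 27.8% of all tested genes were lower and higher. CDH1 (-0.60), KRT20 (-1.01), KRT18 (-0.18) and EPCAM (-0.11) had negative log2 fold changes and CDX2 (0.38) and KRT19 (0.22) positive ones, with edgeR adjusted p = 1.57e-14 for CDH1, 0.00935 for KRT20 and 0.00285 for CDX2. None of 6 leukocyte markers passed the low-count filter, and their summed FPKM was 0.28 to 0.45 in si-NC and 0.14 to 0.46 in si-STRIP2. Fibroblast markers summed to 2.17 to 2.66 and 1.91 to 2.19 FPKM, nearly all of it COL1A1, and endothelial markers to 0.37 to 0.46 and 0.16 to 0.23 FPKM. The endothelial marker tested, KDR, had 41, 40 and 40 counts in si-NC and 16, 19 and 20 in si-STRIP2 (log2 fold change -1.07, edgeR adjusted p = 0.000528). Leukocytes and endothelial cells are rich in class I transcripts. PTPRC had 1 to 5 counts a library and PECAM1 0 to 3. The part of the epithelial and endothelial marker changes in the results below was not tested. In bulk RNA, fewer cells with a transcript and less of it per cell cannot be told apart.

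All 9 genes passed the low-count filter, and 9 of 9 were lower in si-STRIP2 cells at an edgeR adjusted p under 0.05. Of the 15687 genes tested, 27.0% were called lower and 54.8% were called in either direction. The log2 fold changes of the 9 genes ran from -0.57 (B2M) to -0.12 (TAPBP), with a median of -0.35, where the median over all tested genes was 0.014. For 9 of 9 genes the highest si-STRIP2 library was below the lowest si-NC library, which held for 28.7% of tested genes, while 58.6% had groups apart in either direction. With the replicate number as a block 8 of 9 were called lower (26.1% of tested genes). Leaving out si-NC replicate 1, 2 or 3 gave 7, 8 and 9 of 9 (23.8%, 24.6% and 26.5% of tested genes), and leaving out si-STRIP2 replicate 1, 2 or 3 gave 8, 7 and 8 of 9 (24.2%, 24.4% and 24.4%). The genes lost were TAPBP and NLRC5. The changes were small in size, none reaching 1.5-fold. Against a threshold of 1.2-fold, 4 of the 9 were called (B2M, HLA-B, HLA-E and HLA-C), where 12.4% of tested genes were called lower.

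**Figure D2:**
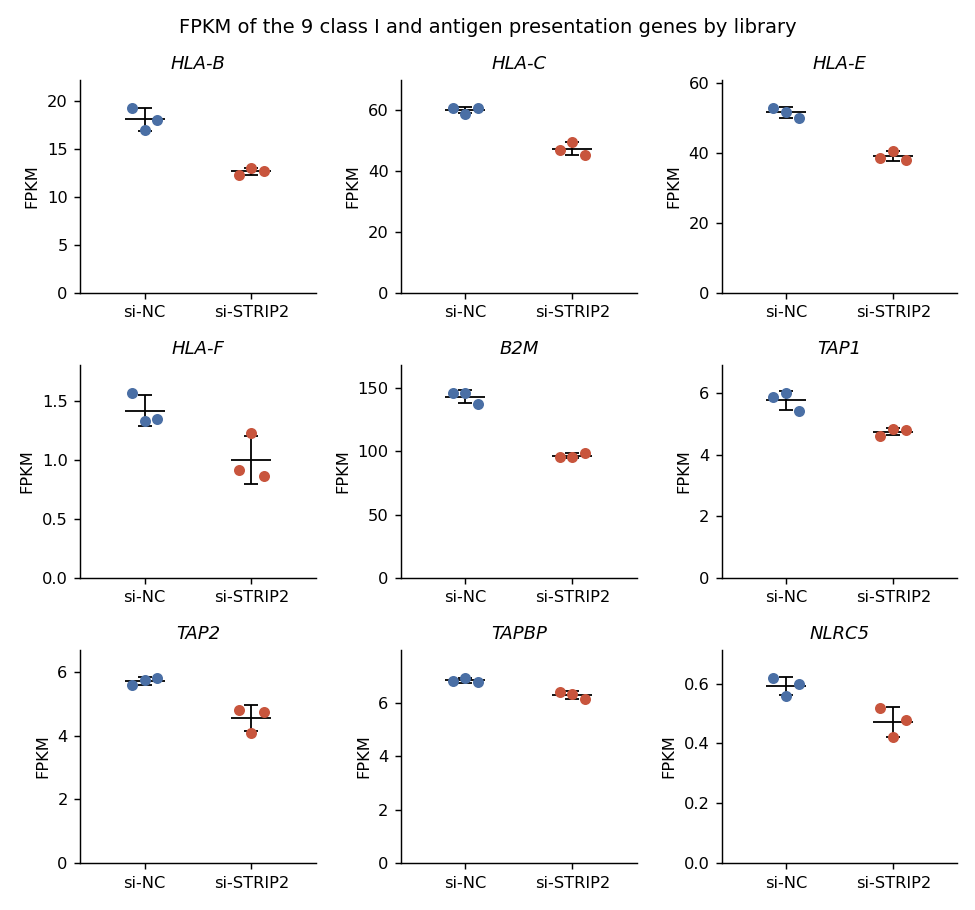
FPKM of each gene in the 3 si-NC and 3 si-STRIP2 libraries. Points are libraries, lines the means and bars the SD. In each of the 9 panels the si-STRIP2 libraries lie below the si-NC libraries, with the groups nearest to each other, for their level, in TAPBP.

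B2M, the light chain of every class I molecule, had the highest level. B2M (ENSG00000166710, chromosome 15, 44711358 to 44718851, plus strand) had 146.55, 146.02 and 137.24 FPKM in si-NC and 95.46, 95.43 and 99.10 FPKM in si-STRIP2. The groups were far apart, and si-NC replicate 3 was the lowest of the controls. The mean went from 143.27 ± 5.23 FPKM to 96.7 ± 2.11 FPKM (SD, n = 3), or 67.5% of control. The log2 fold change of -0.57 (SE 0.041, edgeR adjusted p = 9.17e-14) was the largest of the 9, and 9.29% of all tested genes had a lower one. B2M lies outside the HLA region, and 0 of its 50-base words occurred in a transcript of another gene (GENCODE 29).

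Among the heavy chains, HLA-C and HLA-E had the highest levels. HLA-C (ENSG00000204525, chromosome 6, 31268749 to 31272130, minus strand), a classical class I gene whose product also binds inhibitory receptors of natural killer cells, had 60.88, 58.76 and 60.56 FPKM in si-NC and 47.07, 49.58 and 45.23 in si-STRIP2. All control libraries lay above all si-STRIP2 libraries by over 9 FPKM. The mean fell from 60.1 ± 1.14 to 47.3 ± 2.18 FPKM (SD, n = 3). Its log2 fold change was -0.35 (SE 0.043, edgeR adjusted p = 1.56e-08). HLA-E (ENSG00000204592, chromosome 6, 30489509 to 30494194, plus strand) encodes the non-classical heavy chain that shows leader peptides of other class I chains to the NKG2A receptor. Its FPKM was 52.94, 51.70 and 50.01 in si-NC and 38.58, 40.58 and 37.89 in si-STRIP2, again without overlap. The log2 fold change was -0.41 (SE 0.042, edgeR adjusted p = 5.28e-10).

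HLA-B (ENSG00000234745, chromosome 6, 31353872 to 31367067, minus strand), the other classical gene, had 19.36, 16.98 and 18.02 FPKM in si-NC and 12.33, 13 and 12.74 in si-STRIP2. The control libraries varied more than the si-STRIP2 libraries, and the groups did not overlap. Its log2 fold change was -0.52 (SE 0.051, edgeR adjusted p = 1.13e-10), a level of 70.0% of the control. HLA-F (ENSG00000204642, chromosome 6, 29722775 to 29738528, plus strand), a non-classical gene of low surface level, had 147, 99 and 100 counts in si-NC and 74, 93 and 64 in si-STRIP2, or 1.57, 1.33 and 1.35 against 0.91, 1.23 and 0.86 FPKM. The library si-STRIP2 replicate 2 came close to the controls. The log2 fold change of HLA-F was -0.51, with the widest SE of the 9 genes, 0.148 (edgeR adjusted p = 0.00399). The antisense gene HLA-F-AS1 overlaps it and held 49.7% as many counts, and whether counting used strand is not given in the sources used here, so the value of HLA-F is uncertain.

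The 4 heavy chain genes are close copies, and reads common to several of them cannot be placed. Of the 50-base words in the longest coding transcript, 2.54% for HLA-B, 6.71% for HLA-C, 5.13% for HLA-E and 1.70% for HLA-F occurred in a transcript of another gene, and at 100 bases the highest share among them was 0.6% (HLA-E). At 50 bases, the shares within the class I genes examined here were lower. They were 2.2% for HLA-B, 3.72% for HLA-C, 1.41% for HLA-E and 1.51% for HLA-F. The rest of the shared words lay in genes not examined here. The words were exact matches between reference transcripts, and differences of the HCT116 alleles from the reference were not measured. A sum over the 4 genes does not depend on how counted reads are divided among them. The sum does not settle the placing of reads shared with genes outside the 4. In CPM, counts scaled to a common total, the sum was 404, 383 and 387 in si-NC and 292, 308 and 287 in si-STRIP2. The si-STRIP2 mean was 75.6% of control, and the groups did not overlap.

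The mix of heavy chains shifted little. HLA-C made up 45.2%, 45.6% and 46.6% of the summed FPKM in si-NC and 47.6%, 47.5% and 46.8% in si-STRIP2. HLA-B made up 13.2% to 14.4% and 12.5% to 13.2%, and the shares of HLA-E and HLA-F overlapped between groups. B2M was also set against the heavy chains together. The FPKM of B2M was 1.09, 1.13 and 1.06 times the heavy chain sum in si-NC and 0.965, 0.914 and 1.02 times the sum in si-STRIP2. The groups did not overlap in this ratio, and the gap between the nearest libraries of the groups was smaller than the spread within either group. These shares and ratios are descriptions with no test, and they depend on the exonic sizes by which FPKM is scaled. The size was 4623 bases for HLA-B and 2507 for HLA-C, although their longest coding transcripts had 1547 and 1554 bases. The sizes are the same for both groups, but the level of each share and ratio is uncertain.

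**Figure D3:**
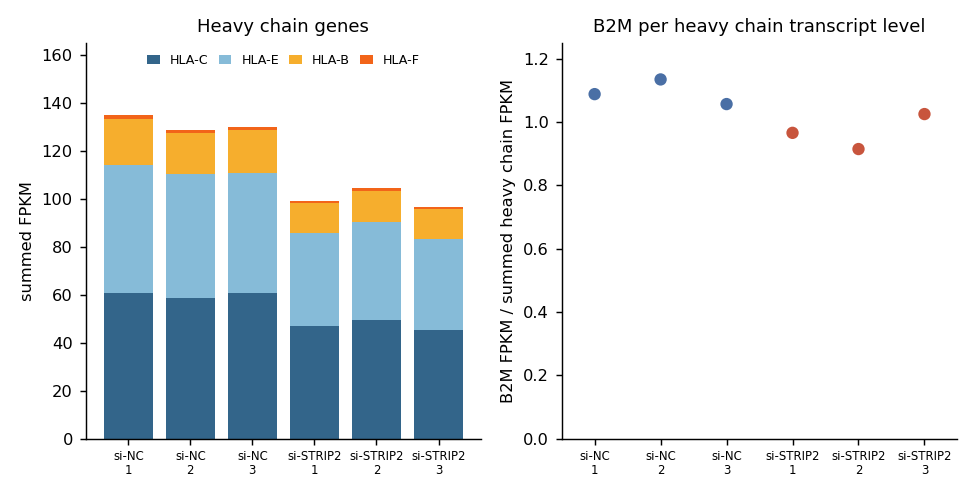
Left, FPKM of the 4 heavy chain genes stacked for each library. Right, the FPKM of B2M divided by that sum. The stacks reach 129 to 135 FPKM in si-NC and 96.7 to 104 in si-STRIP2, and the ratio is 1.06 to 1.13 and 0.914 to 1.02.

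The peptide-loading genes were lower, with log2 fold changes of -0.33 to -0.12. TAP2 (ENSG00000204267, chromosome 6, 32821833 to 32838739, minus strand), a chain of the peptide transporter, had 5.59, 5.77 and 5.83 FPKM in si-NC and 4.83, 4.10 and 4.76 in si-STRIP2. Its si-STRIP2 libraries spread more than its controls, with replicate 2 the lowest. The log2 fold change was -0.33 (SE 0.054, edgeR adjusted p = 4.20e-06). TAP1 (ENSG00000168394, chromosome 6, 32845209 to 32853816, minus strand), the partner chain, had 5.87, 6.02 and 5.43 FPKM in si-NC and 4.62, 4.84 and 4.8 in si-STRIP2. The groups were apart by less than their distance for TAP2, and the log2 fold change was -0.29 (SE 0.069, edgeR adjusted p = 0.000739). The immunoproteasome gene PSMB9 spans all of TAP1 on the opposite strand and held 7.87% as many counts. For TAP2, 35.8% of the 50-base words also occur in another gene's transcript, and an overlapping gene on the same strand held 0.614% as many counts, so its level is uncertain. Under the test against 1.2-fold, neither TAP1 (adjusted p = 0.405) nor TAP2 (adjusted p = 0.128) was called.

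TAPBP (ENSG00000231925, chromosome 6, 33299694 to 33314284, minus strand), the gene of tapasin, had 6.81, 6.94 and 6.77 FPKM in si-NC and 6.39, 6.35 and 6.13 in si-STRIP2. The groups did not overlap, and the si-STRIP2 mean was 92.0% of control. The log2 fold change was -0.12 (SE 0.052, edgeR adjusted p = 0.0443), the smallest of the 9. This call was lost with the replicate number as a block (adjusted p = 0.0717), by DESeq2 (adjusted p = 0.0975) and without si-NC replicate 1 (0.0951), si-NC replicate 2 (0.0877), si-STRIP2 replicate 1 (0.0831), si-STRIP2 replicate 2 (0.0735) or si-STRIP2 replicate 3 (0.131).

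NLRC5 (ENSG00000140853, chromosome 16, 56989485 to 57083531, plus strand), the class I transactivator, had the lowest level of the 9. Its counts were 167, 120 and 128 in si-NC and 122, 91 and 103 in si-STRIP2, or 0.62, 0.56 and 0.60 against 0.52, 0.42 and 0.48 FPKM. The groups did not overlap but lay close together. The log2 fold change was -0.32 (SE 0.125, edgeR adjusted p = 0.0278). The call was lost by DESeq2 (adjusted p = 0.0817) and on leaving out si-NC replicate 1 (0.106) or si-STRIP2 replicate 2 (0.136).

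**Figure D4:**
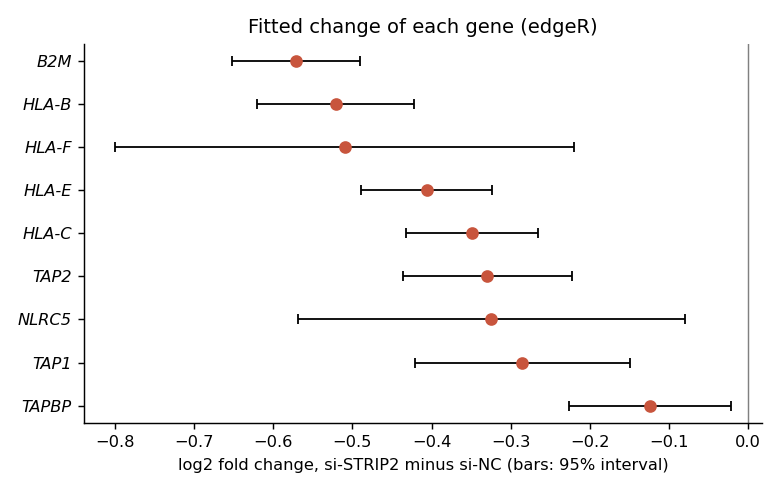
Fitted log2 fold change of each gene, si-STRIP2 minus si-NC, with bars for the 95% interval (1.96 SE to each side). All 9 values are negative. B2M, HLA-B and HLA-F lie lowest, and the bar of TAPBP comes nearest to 0.

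The partners of NLRC5 were not called lower. Of 8 genes of the class I enhanceosome (the RFX, CREB/ATF and NF-Y factors), 0 were lower and 1 was higher. Over all tested genes, 27.0% were lower and 27.8% higher. The median log2 fold change of the 8 genes was 0.00060. The gene called higher was RFXANK (log2 fold change 0.25, edgeR adjusted p = 0.0138), a call that was lost by limma on log2(FPKM + 1) (0.0617), without si-NC replicate 2 (0.0861) or si-STRIP2 replicate 2 (0.138), and the overlapping NR2C2AP held 100.5% as many counts. ATF1 had a log2 fold change of -0.031 (95% interval, -0.13 to 0.067). PRC2, a repressor complex known to silence class I genes in tumours, had EED higher (0.27, edgeR adjusted p = 0.000163) and SUZ12 lower (-0.16, edgeR adjusted p = 0.00149), while its catalytic subunit EZH2 had -0.018 (-0.097 to 0.061).

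Interferon signalling raises class I transcription. The transcripts of its components changed in both directions, and signalling activity was not measured. Of 11 genes for receptors, JAK kinases, STAT and IRF factors, 5 were lower, 4 higher and 2 not called. The shares over all tested genes were 27.0% lower and 27.8% higher. The median log2 fold change of the 11 genes was -0.14. IFNGR1, the ligand-binding chain of the interferon gamma receptor, had 22.90, 23.24 and 23.30 FPKM in si-NC and 14.54, 14.60 and 14.09 in si-STRIP2. The libraries of each group lay close together and the groups far apart, with a log2 fold change of -0.69 (SE 0.046, edgeR adjusted p = 1.11e-14). JAK1, a kinase bound to that receptor, fell by 0.39 and IFNAR1, a chain of the type I interferon receptor, by 0.38 on the log2 scale (edgeR adjusted p = 9.98e-10 and 7.24e-09). IRF2, a factor that competes with IRF1 at many ISREs, rose from 1.02, 1.24 and 1.00 to 1.79, 1.57 and 1.5 FPKM (log2 fold change 0.58, SE 0.111, edgeR adjusted p = 3.41e-05). IRF1 itself went from 1.48 ± 0.111 to 1.34 ± 0.122 FPKM (SD, n = 3), and its log2 fold change was -0.14 (95% interval, -0.31 to 0.024, edgeR adjusted p = 0.155). The other calls were weaker or are named to complete the counts, after their values were seen. JAK2 fell by 0.35 on the log2 scale (edgeR adjusted p = 0.000254). IFNGR2 (0.14), TYK2 (0.17) and STAT2 (0.17) were called higher and IRF9 (-0.42) lower, and each of these 4 lost its call by DESeq2 (adjusted p from 0.0595 to 0.110). TMEM50B overlaps IFNGR2 and held 94.7% as many counts. The 4 genes also lost their calls on leaving out single libraries, IFNGR2 without si-NC replicate 1 or 3 or si-STRIP2 replicate 1 or 3 (0.0552 to 0.0954), TYK2 without replicate 1 or 2 of either group (0.117 to 0.187), STAT2 without si-NC replicate 2 (0.122) or si-STRIP2 replicate 1 (0.0887), and IRF9 without any library but si-NC replicate 2 (0.0525 to 0.252).

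Of the 5 NF-kB subunit genes, 3 were lower and 0 higher, against 27.0% and 27.8% of all tested genes. The median log2 fold change of the 5 genes was -0.16. REL, which encodes c-Rel, fell from 1.03, 1.11 and 1.03 FPKM to 0.46, 0.49 and 0.46 (log2 fold change -1.17, SE 0.092, edgeR adjusted p = 7.61e-13). RELA, the most abundant of them in si-NC, fell by 0.16 (edgeR adjusted p = 0.00413). RELB fell by 0.39 (edgeR adjusted p = 0.0226), a call lost by DESeq2 (0.0755), without si-NC replicate 1 (0.179) or si-STRIP2 replicate 1 (0.115).

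Genes of peptide supply moved in both directions. The immunoproteasome subunits were scarce in both groups. PSMB8 had 18, 11 and 7 counts in si-NC and 4, 8 and 5 in si-STRIP2 and was not tested. PSMB9 had 0.687 ± 0.197 and 0.5 ± 0.115 FPKM (log2 fold change -0.42, edgeR adjusted p = 0.132), and PSMB10 had 0.933 ± 0.161 and 1.11 ± 0.172 FPKM (SD, n = 3; 0.24, edgeR adjusted p = 0.409). The gene TAP1 overlaps PSMB9 and held 1270% as many counts, and a gene on the strand of PSMB10 overlaps it with 86.9% as many, so both are uncertain. The proteasome activator was higher, with PSME1 at 37.77, 37.41 and 35.48 FPKM in si-NC and 46.59, 47.31 and 45.54 in si-STRIP2 (log2 fold change 0.33, edgeR adjusted p = 1.63e-07). PSME2, its partner, had a log2 fold change of 0.10 (edgeR adjusted p = 0.0460), a call lost without any 1 of the 6 libraries (adjusted p from 0.0597 to 0.136), by DESeq2 (0.134) and with the replicate number as a block (0.0839).

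The 3 constitutive catalytic subunits had log2 fold changes between -0.16 (PSMB6, edgeR adjusted p = 0.00156) and 0.13 (PSMB5, edgeR adjusted p = 0.0197, lost by DESeq2, at 0.0669, and without si-NC replicate 2, si-NC replicate 3 or si-STRIP2 replicate 2, at 0.113, 0.0745 and 0.152). Of 6 peptide-trimming genes, 2 were lower and 2 higher, against 27.0% and 27.8% of all tested genes. ERAP1, the trimming enzyme of the endoplasmic reticulum, fell by 0.37 (edgeR adjusted p = 0.000428), but the overlapping CAST held 1584% as many counts. NRDC fell by 0.15, and the overlapping OSBPL9 held 35.8% as many counts. The cytosolic peptidases TPP2 and THOP1 rose by 0.23 and 0.21 on the log2 scale.

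Among 6 chaperones of the endoplasmic reticulum that handle class I chains, 3 were lower and 1 higher. Among all tested genes, 27.0% were lower and 27.8% higher. HSPA5, the general chaperone BiP, fell from 414, 430 and 410 FPKM to 231, 236 and 227 (log2 fold change -0.86, SE 0.047, edgeR adjusted p = 7.30e-17). PDIA3, the oxidoreductase of the peptide-loading complex, fell by 0.18 (edgeR adjusted p = 0.000570). CALR, the calreticulin of that complex, rose by 0.19 (edgeR adjusted p = 0.000499). CANX, which folds new heavy chains, fell by 0.11 (edgeR adjusted p = 0.0357), a call lost with the replicate number as a block (0.0688) and without si-NC replicate 1 (0.0858), si-NC replicate 2 (0.0703), si-STRIP2 replicate 1 (0.218) or si-STRIP2 replicate 2 (0.0924).

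**Figure D5:**
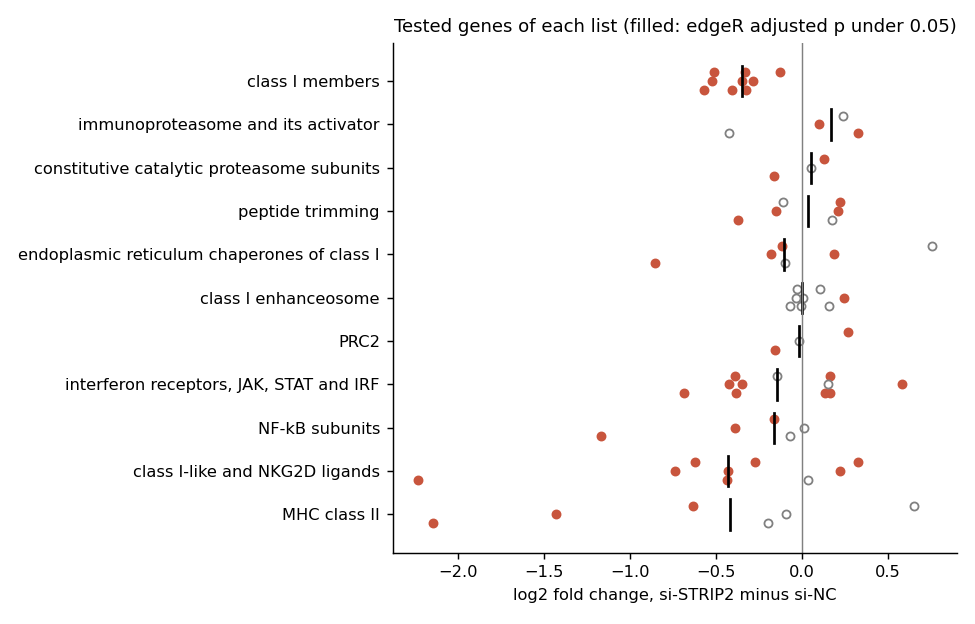
Log2 fold change, si-STRIP2 minus si-NC, of the tested genes in each list. Filled points have an edgeR adjusted p under 0.05, open points do not, and vertical bars are medians. All 9 class I genes lie below 0, while the enhanceosome list is centred on 0 and the interferon list has points on both sides.

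Relatives of class I that act outside the peptide route also moved. Of 9 tested class I-like genes and NKG2D ligands, 6 were lower and 2 higher, against 27.0% and 27.8% of all tested genes. The median log2 fold change of the 9 genes was -0.43. MR1, which shows vitamin B metabolites to MAIT cells, had 3.54, 3.62 and 3.57 FPKM in si-NC and 2.2, 2.22 and 2.03 in si-STRIP2 (log2 fold change -0.74, edgeR adjusted p = 1.97e-11). The stress ligands of the NKG2D receptor differed among themselves. RAET1L had 105, 85 and 68 counts in si-NC and 21, 15 and 16 in si-STRIP2 (log2 fold change -2.23, SE 0.211, edgeR adjusted p = 5.98e-11), and ULBP1 fell by 0.62 (edgeR adjusted p = 7.61e-13) and ULBP2 by 0.44 (edgeR adjusted p = 0.00130). ULBP3 had a log2 fold change of 0.035 (95% interval, -0.086 to 0.155), and MICB, named after its value was seen, rose by 0.33 (edgeR adjusted p = 1.26e-05). The remaining calls, also named after their values were seen, were MICA (-0.27), RAET1E (-0.43, lost by DESeq2 at an adjusted p of 0.0533 and without si-NC replicate 1 at 0.156) and HFE (0.22, lost by DESeq2 at 0.0575 and without si-STRIP2 replicate 3 at 0.134). Sequence shared among these ligands was not measured.

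Class II transcripts were at low levels in both groups. Of 12 class II genes, 6 were tested, 3 were lower and 0 higher, where 27.0% and 27.8% of all tested genes were lower and higher. HLA-DRA had 47, 40 and 35 counts in si-NC and 16, 18 and 9 in si-STRIP2 (log2 fold change -1.43, SE 0.270, edgeR adjusted p = 3.14e-05). The others called, named after their values were seen, were HLA-DPA1, with 15, 16 and 12 counts in si-NC and 3, 1 and 5 in si-STRIP2 and HLA-DPB1 overlapping it at 61.5% as many, and HLA-DMB (log2 fold change -0.64, edgeR adjusted p = 0.0202, lost by DESeq2, at 0.0705, and without si-NC replicate 3, at 0.0706, or si-STRIP2 replicate 2, at 0.0784). The transactivator CIITA had 5 to 18 counts in each library, and CD74 had 3 to 5.

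The neighbours of the class I genes on chromosome 6 were compared next. Of the 9 genes, 7 lie within the 3.59 megabases between HLA-F and TAPBP (chromosome 6, 29722775 to 33314284). The other 121 tested genes of that interval had a median log2 fold change of 0.097. Of these, 23 were lower (19.0%) and 35 higher (28.9%), where 27.0% and 27.8% of all tested genes were lower and higher.

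The genes most like B2M across the 6 libraries were ARNTL2, IRF2BP2, RNF145, TC2N and SPOPL, out of 10126 genes compared. Likeness was the root mean square difference of log2 CPM after centring each gene on its mean, and it was 0.014 to 0.018 for these 5. They had log2 fold changes of -0.59 to -0.57, which lie near that of B2M because the measure selects for this. HLA-F and NLRC5 were below the level set for this comparison (a mean log2 CPM of 3). The nearest of the other class I genes was HLA-B, at 0.071, so that 352 other genes were more like B2M. The median over the genes compared was 0.306.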

How the data were processed

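RNA-seq was read for 6 HCT116 libraries, 3 si-NC and 3 si-STRIP2. The deposited table gives raw counts and FPKM per gene, per the file headers. The submitters' processing notes name bcl2fastq 2.20.0.422, FastQC 0.10.1, cutadapt 1.9.1, HISAT2 2.2.1, HTSeq 0.6.1 and GRCh38.p13. The strand setting and annotation release are not given in the sources used here. The deposited FPKM matched counts scaled by exonic size and column total within 0.005.

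Counts were tested in R 4.3.3 with edgeR 4.0.16: filterByExpr (minimum count 10, leaving 15687 genes with 99.8% of counts), TMM, and the 2-sided quasi-likelihood F test with Benjamini-Hochberg adjustment over all genes tested, called at an adjusted p under 0.05. Standard errors are the absolute log2 fold change over the square root of F. Low counts limit the precision of HLA-F and NLRC5. Alternatives used DESeq2 1.42.0, limma 3.58.1 on log2(FPKM + 1) or log2(FPKM + 0.1), other scalings and filters, a replicate block, a 1.2-fold threshold (glmTreat) and each library left out. On simulated counts for 15687 genes, of which 200 were changed, 60.0% of 1.3-fold and 91.0% of 2-fold changes were recovered. Of the calls made there, 5.62% were of unchanged genes. Far more genes, 8599, were called in the data, so these rates need not hold for them.

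The members and lists were chosen with earlier results of these data known. The 10 lists hold 71 genes, and 1 further gene is not reported here. From each, up to 4 called genes with the largest change at a mean of at least 1 FPKM and up to 2 uncalled genes of high level were to be named, and others called are named where a count is small. Coordinates are those of the deposited table, and promoters are RefSeq's (GRCh38.p14).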

Additional observations from a re-analysis of the deposited data

How the results depend on the processing

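Results were recomputed under 15 alternatives. The direction of each of the 9 class I genes was the same in all fits that tested it, and B2M, HLA-B, HLA-C and HLA-E kept an adjusted p under 0.05 in each. The filter of at least 1 FPKM, which limma also used, left out NLRC5. The test against 1.2-fold called 3723 genes, 4 of the 9 class I genes (4 lower) and 11 of 61 tested list genes, against 8599, 9 and 38, since it asks for a larger change. Under it HLA-F (-0.51), TAP1 (-0.29), TAP2 (-0.33), TAPBP (-0.12) and NLRC5 (-0.32) lost their calls. TAPBP also lost its call by DESeq2 (-0.13), with no filter on low counts (-0.12) and with the replicate block (-0.12), and NLRC5 by DESeq2 (-0.33). The cause was not tested. With libraries left out in turn, log2 fold changes ranged from -0.60 to -0.55 for B2M, -0.57 to -0.46 for HLA-B, -0.38 to -0.32 for HLA-C, -0.43 to -0.38 for HLA-E, -0.68 to -0.42 for HLA-F, -0.33 to -0.26 for TAP1, -0.37 to -0.26 for TAP2, -0.13 to -0.11 for TAPBP and -0.39 to -0.24 for NLRC5. From 7 to 9 of the 9 genes and 33 to 35 list genes were called. With the replicate block 8293 genes and 8 of the 9 were called. Deviations of same-numbered libraries from their group means correlated at -0.14, -0.045 and -0.20 across genes. No library correlated best with its own number. With 3 libraries in a group the deviations must cancel out, so these values cannot decide whether the samples were paired. Signs of uncalled genes turned when single libraries were left out, with ranges of -0.0070 to 0.094 for PSMB7, -0.17 to 0.36 for ERAP2, -0.043 to 0.0044 for EZH2, -0.016 to 0.031 for NFKB2 (also -0.0018 with the filter of at least 1 FPKM), -0.010 to 0.062 for ULBP3 and -0.28 to 0.022 for HLA-DOB. The median of all tested genes lay between 0.0069 and 0.046.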
